A study of Mus musculus with 16 samples.

Results

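The 30 genes described here are erythroid identity genes: transcription factors, receptors, blood group antigens, membrane skeleton proteins and enzymes by which cells of the red cell lineage are recognised. They were chosen by name, with earlier results of these data known. Each was read from the array row that carried its symbol alone, with the highest mean over the 16 arrays where a gene had several rows. A row was found for 29 of the 30, among 19937 distinct symbols and 22961 tested rows. Ahsp had no such row. Tmod1 was the only gene with a second row.

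Messenger RNA was measured on Affymetrix Mouse Gene ST arrays in bone marrow cells of mice on the C57BL/6J background. Both sorted populations lack lineage markers and carry c-Kit. LSK cells also carry Sca1 and include the stem cells, whereas MP cells lack Sca1 and are myeloid progenitors, some of them committed to the red cell lineage. Wild-type (WT) and Parp-2-/- mice gave each population without irradiation or at 2.5 hours from a gamma dose of 5 Gy, which made 8 groups of 2 arrays. Each array was 1 pool of at least 3 mice. The sources used here do not give the age or sex of the mice, or say whether LSK and MP pools shared mice. With 2 pools a group, p-values measure only the spread between pools.

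Red cell progenitors arise from bipotent and multipotent myeloid progenitors. Gata1, with its partner Zfpm1, and Klf1 switch on the red cell programme, and Gfi1b is a repressor that progenitors of red cells and platelets need. Survival and growth of committed progenitors then depend on erythropoietin, whose receptor is Epor, and on iron taken up through the transferrin receptor, Tfrc. Band 3 (Slc4a1), haemoglobin and the finished membrane skeleton come late, after the stages that an MP sort collects. Erythroid progenitors and precursors are known to be sensitive to radiation.

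Erythroid genes were lower in MP cells after irradiation. Averaged over both genotypes, 10 of the 29 genes fell, where 0.536% of all tested rows did: Gata1, Gfi1b and Hemgn among the nuclear proteins, Epor and Tfrc among the receptors, Aqp1, Ermap and Icam4 at the cell surface, and Ank1 and Add2 in the membrane skeleton. The falls ranged from 1.70-fold for Epor to 2.71-fold for Aqp1. In LSK cells the same average over both genotypes gave 1 fall, that of Tfrc, where 3.71% of all rows were called in either direction. Within a single genotype the counts were 3 (WT) and 2 (Parp-2-/-) in MP cells and 0 and 0 in LSK cells (limma; 3 and 1 LSK genes at an unadjusted p under 0.05). Gfi1b and Hemgn fell in each genotype on its own. These calls did not hold in every fit that left out 1 array, and those of Hemgn held in fewer fits than those of Gfi1b. Bulk RNA cannot tell fewer erythroid cells in the sorted MP population from less RNA of these genes per cell.

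The promoter windows of 7 of the 29 erythroid genes are printed as examples. GATA1 and KLF1, which read the motifs below, are the master factors of the lineage. Klf1 and Rhag are printed although neither passed over both genotypes. The part of GATA1 or KLF1 in the falls was not tested. Each window holds 250 bases before and 50 after a RefSeq transcript start (RefSeq, build GRCm38.p6), read 5′ to 3′ on the strand of the gene. Capitals mark AGATAA or TGATAA, the core that GATA factors bind (TTATCT and TTATCA on the other strand), and CACCC, the core that KLF factors bind (GGGTG on the other strand).
Gfi1b (chr2:28621933-28622232, minus strand): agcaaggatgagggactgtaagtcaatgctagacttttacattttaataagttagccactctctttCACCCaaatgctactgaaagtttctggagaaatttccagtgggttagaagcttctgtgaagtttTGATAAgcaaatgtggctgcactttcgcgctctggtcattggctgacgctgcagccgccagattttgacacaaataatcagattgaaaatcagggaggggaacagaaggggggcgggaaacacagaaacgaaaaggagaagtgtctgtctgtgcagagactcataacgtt
Hemgn (chr4:46404134-46404433, minus strand): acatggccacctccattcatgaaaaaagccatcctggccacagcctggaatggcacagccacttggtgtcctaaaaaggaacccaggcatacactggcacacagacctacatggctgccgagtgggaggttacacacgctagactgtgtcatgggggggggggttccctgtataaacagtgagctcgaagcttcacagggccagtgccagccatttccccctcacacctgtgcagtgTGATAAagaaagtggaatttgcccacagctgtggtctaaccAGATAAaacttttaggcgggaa
Klf1 (chr8:84901732-84902031, plus strand): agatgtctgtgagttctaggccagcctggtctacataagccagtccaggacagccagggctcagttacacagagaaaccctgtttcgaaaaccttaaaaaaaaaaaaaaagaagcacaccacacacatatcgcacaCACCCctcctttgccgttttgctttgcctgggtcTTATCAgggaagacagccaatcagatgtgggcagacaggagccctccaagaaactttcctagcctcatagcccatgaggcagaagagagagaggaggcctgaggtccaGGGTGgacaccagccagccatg
Epor (chr9:21963527-21963826, minus strand): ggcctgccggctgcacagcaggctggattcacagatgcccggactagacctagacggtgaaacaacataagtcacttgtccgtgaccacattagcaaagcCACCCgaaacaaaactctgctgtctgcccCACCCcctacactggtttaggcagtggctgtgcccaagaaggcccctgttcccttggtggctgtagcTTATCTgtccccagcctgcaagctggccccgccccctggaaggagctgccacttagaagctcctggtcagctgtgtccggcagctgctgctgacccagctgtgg
Aqp1 (chr6:55336049-55336348, plus strand): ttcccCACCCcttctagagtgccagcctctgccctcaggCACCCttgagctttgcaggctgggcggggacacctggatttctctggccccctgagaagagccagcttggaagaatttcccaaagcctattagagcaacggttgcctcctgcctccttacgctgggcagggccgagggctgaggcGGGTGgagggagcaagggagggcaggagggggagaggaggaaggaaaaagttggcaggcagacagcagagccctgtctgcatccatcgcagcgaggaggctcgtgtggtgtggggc
Icam4 (chr9:21029182-21029481, plus strand): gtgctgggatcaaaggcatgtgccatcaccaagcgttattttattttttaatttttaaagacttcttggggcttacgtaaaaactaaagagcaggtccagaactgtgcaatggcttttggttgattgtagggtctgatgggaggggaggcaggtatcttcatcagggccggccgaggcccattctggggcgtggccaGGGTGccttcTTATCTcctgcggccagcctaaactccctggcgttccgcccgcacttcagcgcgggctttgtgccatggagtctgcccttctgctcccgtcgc
Rhag (chr17:40810899-40811198, plus strand): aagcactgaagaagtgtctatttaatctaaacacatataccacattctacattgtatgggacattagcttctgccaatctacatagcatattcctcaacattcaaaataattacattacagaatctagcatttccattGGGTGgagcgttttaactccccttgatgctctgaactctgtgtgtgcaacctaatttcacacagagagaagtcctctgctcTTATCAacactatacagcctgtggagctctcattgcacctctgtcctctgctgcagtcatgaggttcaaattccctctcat

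Gfi1b carries TGATAA 120 bases before its start, and Hemgn carries TGATAA 13 bases before its start and AGATAA at base 29 after it. On the other strand, AGATAA lies 54 bases before the start of Epor and 43 before that of Icam4, and TGATAA lies 80 bases before that of Klf1 and 31 before that of Rhag. The Aqp1 window has 3 CACCC matches and no AGATAA or TGATAA. A window was found for 23 of the 30 genes, 30 windows in all, since some genes have several starts whose windows can overlap. Car1, Car2, Ank1, Cldn13, Nfe2, Slc4a1 and Ahsp are named only. AGATAA or TGATAA was present in 14 of the 30 windows (46.7%) and in 18.6% of the 32851 windows of the whole table. CACCC was present in 86.7% of them against 57.5%, and both kinds of motif in 40.0% against 8.96%. These are matches of letters on both strands and not measured binding sites.

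On the labelled genotype, Parp2 itself had log2 intensities of 6.74 to 7.11 on the Parp-2-/- MP arrays and 7.98 to 8.40 on the WT MP arrays. In LSK cells the ranges were 5.70 to 6.77 and 7.40 to 7.96. Of 7 genes chosen as a check of irradiation, all well-known p53 targets, 6 rose in MP cells of each genotype, Mdm2 by 2.22 ± 0.11 log2 units over both. The median of an array lay between 4.74 and 4.92, and a level below it is not shown to be above background. Values are log2 intensities of single rows, unless a mean or a sum over genes is named. Levels are not compared between genes.

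The erythroid label was borne out in part. In unirradiated MP cells, 27 of the 29 genes lay above the array median in both WT pools and 26 in both Parp-2-/- pools, against 18 and 17 in LSK cells. Rhag, Rhd, Kel, Cldn13 and Tspo2 lay above the median on all 8 MP arrays and on none of the 8 LSK arrays. Markers of late maturation did not read alike. Epb42 (protein 4.2) was above the median on 1 of 8 MP arrays and Slc4a1 on 4 of 8 MP and 7 of 8 LSK arrays. Alas2, the haem synthesis enzyme of maturing red cells, was above it on 4 of all 16. Tspo2, named above, is a transporter of maturing erythroblasts. Of the other membrane skeleton genes, Add2 was above the median on 5, Sptb on 6, Tmod1 on 7 and Ank1 on 8 of the 8 MP arrays. The 3 globin genes with a row, Hba-x, Hbb-bh1 and Hbb-y, are embryonic, and none lay above the median in both pools of any group.

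**Figure D1:**
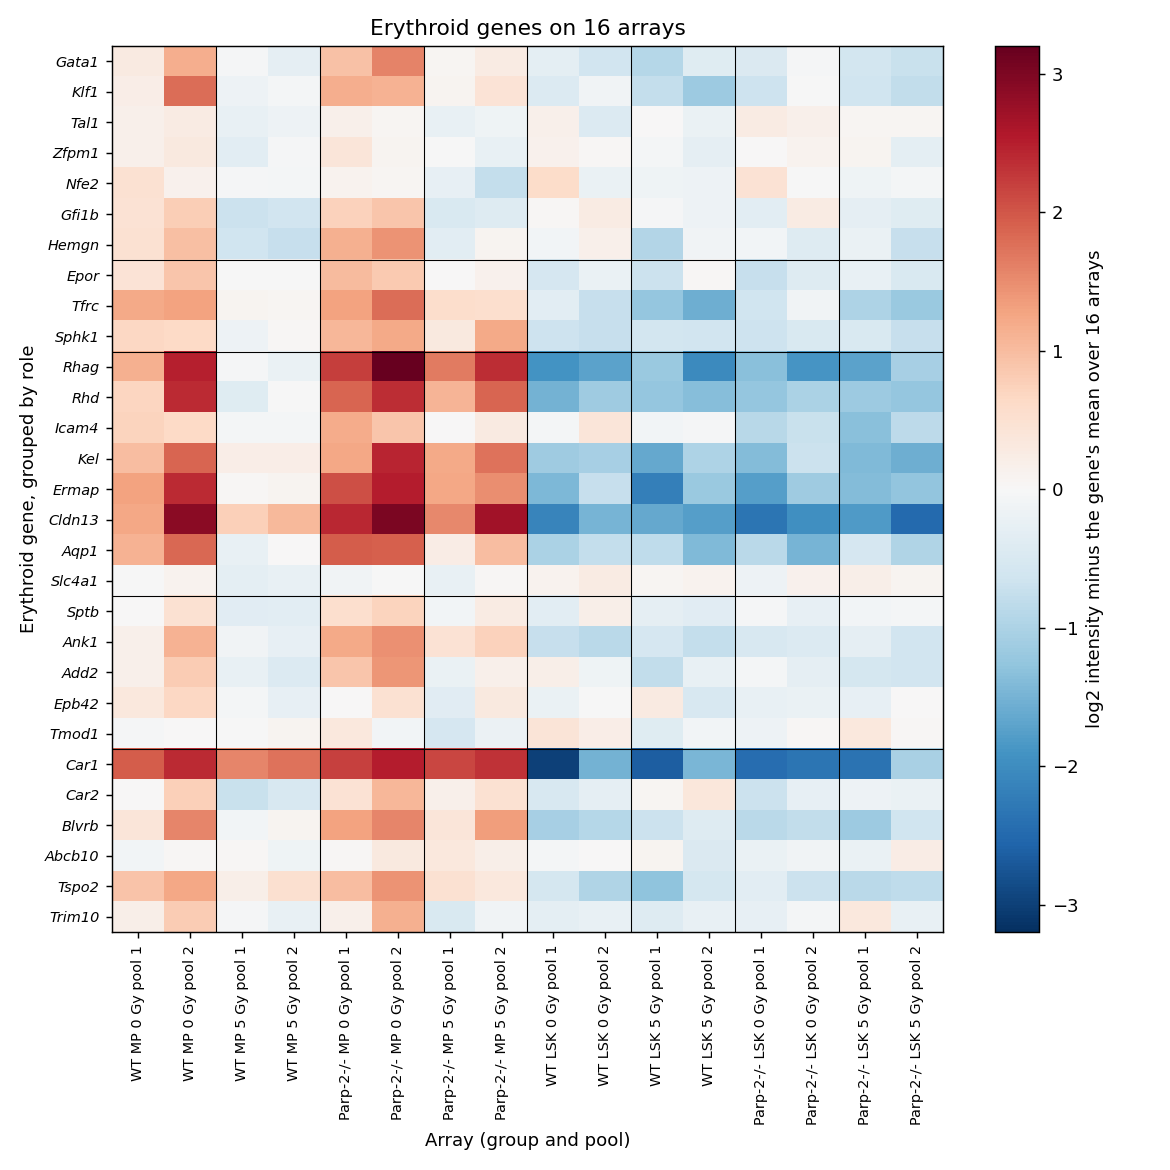
Colours give the log2 intensity of each of the 29 erythroid genes (vertical axis, grouped by role) on each of the 16 arrays (horizontal axis, 2 pools per group), minus that gene's mean over the 16 arrays. Most rows are red on the unirradiated MP arrays, paler on the irradiated MP arrays and blue on the LSK arrays, while Tal1, Zfpm1, Slc4a1 and Abcb10 have the narrowest ranges.

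Before irradiation, many of the erythroid messages were higher in MP than in LSK cells, 14 in both genotypes. In WT, 14 of the 29 genes were higher in MP cells, where 3.93% of all tested rows were, and 0 were lower. In Parp-2-/- cells, 19 were higher, where 2.52% of all rows were, and 0 were lower. The genes called in WT were all called in Parp-2-/- too, and Gfi1b, Hemgn, Icam4, Add2 and Car2 were called in Parp-2-/- only, a difference in calls that was not tested as such. Without pool 2 of the unirradiated WT MP cells the WT count was 9, and without pool 2 of the unirradiated Parp-2-/- MP cells the Parp-2-/- count was 10.

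Carbonic anhydrase 1, Car1, stood highest of the red cell enzymes against LSK cells. Its log2 intensities were 10.96 and 11.42 in unirradiated WT MP cells and 6.04 and 7.51 in unirradiated WT LSK cells. The populations did not overlap, although the LSK pools lay far apart. The difference was 4.42 ± 0.49 (standard error; limma, adjusted p = 0.00138) in WT and 4.74 ± 0.49 (adjusted p = 0.000519) in Parp-2-/- cells. Cldn13, a claudin of mouse erythroid cells, differed by at least 3.86 in WT, and Rhag, the Rh-associated ammonium channel, by at least 3.62. Both are lower bounds, since the LSK level was under the array median. Gfi1b, by contrast, read 7.34 and 7.68 in unirradiated WT MP cells and 6.93 and 7.15 in WT LSK cells. Its WT levels in the 2 populations were close, and the stem cell compartment is known to express it. In Parp-2-/- cells it read 7.63 and 7.78 in MP cells against 6.54 and 7.16 in LSK cells, a difference of 0.85 ± 0.20 (adjusted p = 0.0366).

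In WT MP cells, 3 of the 29 genes fell after irradiation, Gfi1b, Hemgn and Tfrc, where 0.1% of all tested rows fell. The irradiated level was below the unirradiated one in 28 of the 29, as in 58.3% of all rows, and every irradiated array lay below every unirradiated array for 27, where this held for 26% of all rows. The median change of the 29 genes was -0.81 log2 units, and that of all rows was -0.04. Without pool 1 of the unirradiated WT MP cells Gfi1b alone of these 3 kept its call, while other genes gained one. No call held without pool 2 of the unirradiated WT MP cells or without either irradiated WT MP pool. Hemgn and Tfrc, but not Gfi1b, also lost their calls in some fits that left out an array of another group.

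In Parp-2-/- MP cells, 2 of the 29 genes fell, Gfi1b and Hemgn, where 0.0827% of all rows fell. The level was lower after irradiation in 28 of the 29, as in 53.1% of all rows, and every irradiated array lay below every unirradiated array for 18, where this held for 22.3% of all rows. The median change was -0.64, and that of all rows was -0.01. Neither call held when any 1 of the 4 Parp-2-/- MP arrays was left out. Hemgn also lost its call when any single WT MP array or any single unirradiated LSK array was left out. Of the 29 genes, 27 read lower after irradiation in both genotypes, and 17 did so with no overlap of arrays in either. The shares of all rows that did so in both genotypes were not taken. They can be at most those of Parp-2-/- alone, 53.1% and 22.3%.

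With the WT and Parp-2-/- responses averaged, which rests on 8 MP arrays, 10 of the 29 genes were called lower and 28 read below 0, as 57.9% of all rows did. At an unadjusted p under 0.05, 25 of the 29 passed, against 10.1% of all rows. The median change was -0.77, beside -0.03 for all rows. Leaving out pool 1 of the unirradiated WT MP cells gave 16 genes. Leaving out a single other array gave 5 genes (pool 2 of the unirradiated WT MP cells, pool 2 of the irradiated WT MP cells, or pool 2 of the unirradiated Parp-2-/- MP cells), 6 (pool 1 of the irradiated WT MP cells) or 4 (pool 1 of the irradiated Parp-2-/- MP cells). Gfi1b, Hemgn, Tfrc and Aqp1 stayed called in all 16 fits that left out 1 array, Icam4 in 15, Add2 in 12, Gata1 and Ermap in 10, Epor in 9 and Ank1 in 3.

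**Figure D2:**
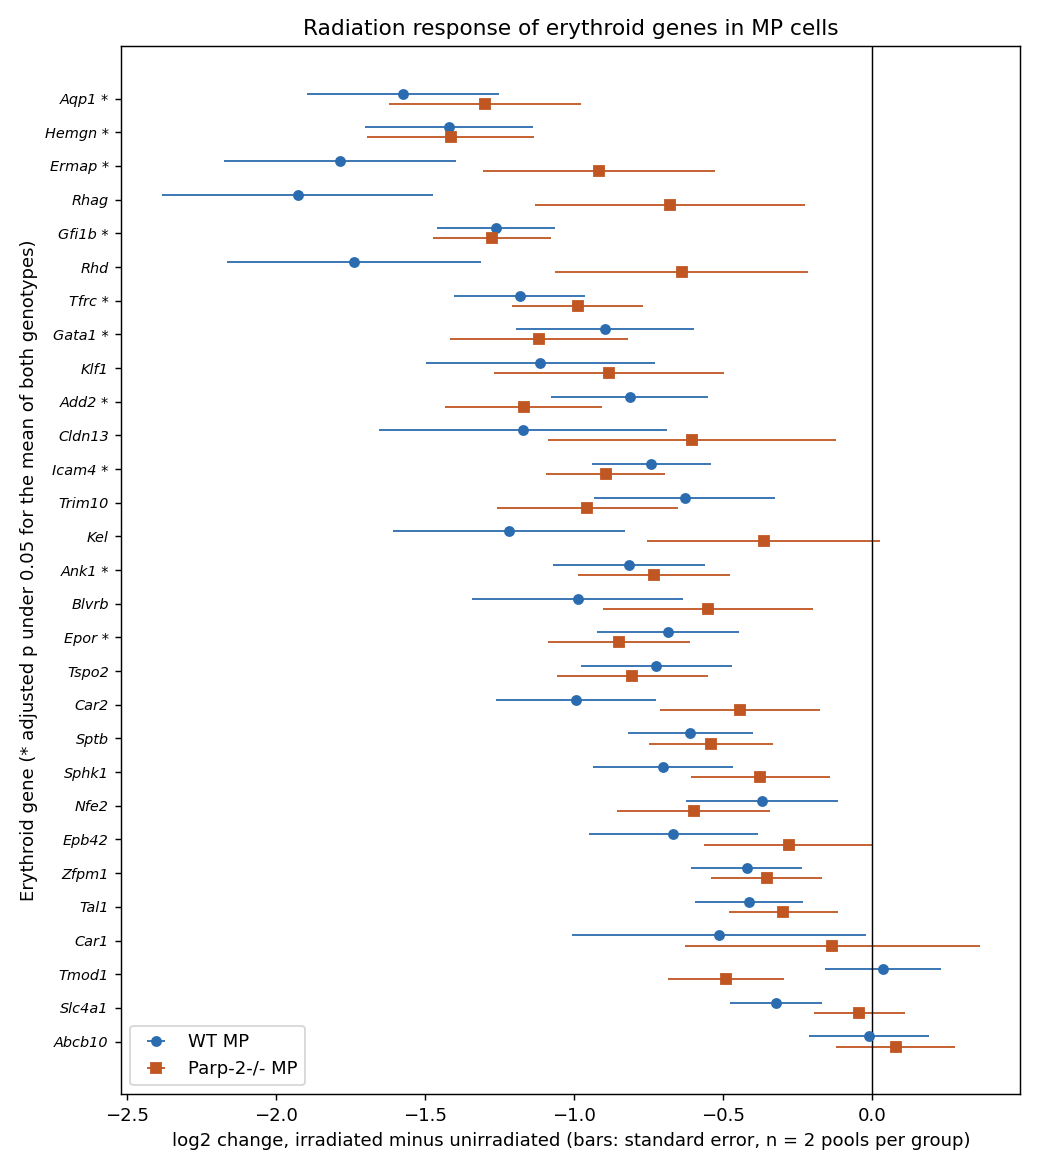
The change in log2 intensity after irradiation (horizontal axis, irradiated minus unirradiated) is plotted for each of the 29 erythroid genes (vertical axis, ordered by the mean of both genotypes) in WT MP cells (circles) and Parp-2-/- MP cells (squares), with standard errors as bars and 2 pools per group. Asterisks mark the 10 genes with an adjusted p under 0.05 for the mean of both genotypes. The symbols of Gfi1b and Hemgn lie on top of each other, and those of Rhag, Rhd, Ermap and Kel lie apart.

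Among the 7 transcription factors and nuclear proteins, 3 fell over both genotypes (Gfi1b, Hemgn and Gata1), and all 7 read below 0. Gfi1b, the repressor, read 7.34 and 7.68 in unirradiated WT MP cells and 6.21 and 6.28 in irradiated ones. In Parp-2-/- MP cells it read 7.63 and 7.78, then 6.39 and 6.47. All 4 irradiated arrays lay below all 4 unirradiated arrays, by more than the gap between any pair of pools. The fall was 1.26 ± 0.20 in WT (limma, adjusted p = 0.0103) and 1.28 ± 0.20 in Parp-2-/- (adjusted p = 0.00967), or 1.27 ± 0.14 over both (adjusted p = 0.000299).

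Hemgn encodes hemogen, a nuclear protein of blood progenitors. It read 7.56 and 8.02 in unirradiated WT MP cells against 6.42 and 6.32 in irradiated ones, and 8.21 and 8.50 against 6.73 and 7.16 in Parp-2-/- MP cells. The 4 irradiated arrays were again the lowest 4 of the 8. The fall was 1.42 ± 0.28 in WT (limma, adjusted p = 0.0427) and 1.41 ± 0.28 in Parp-2-/- (adjusted p = 0.0468). Over both genotypes it was 1.42 ± 0.20, which is 2.67-fold (adjusted p = 0.00188). With 1 array left out, the change within a genotype ran from -1.65 to -1.19 in WT and from -1.63 to -1.20 in Parp-2-/-. Neither of these 2 calls held in every such fit.

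Gata1 read 5.89 and 6.76 in unirradiated WT MP cells against 5.56 and 5.30, and 6.54 and 7.19 in Parp-2-/- MP cells against 5.65 and 5.85. No irradiated array reached an unirradiated one. It fell by 1.01 ± 0.21 over both genotypes (limma, adjusted p = 0.0285), and neither genotype passed alone (-0.90 ± 0.30 in WT and -1.12 ± 0.30 in Parp-2-/-, adjusted p = 0.412 and 0.222).

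Klf1 read 6.05 and 7.61 in unirradiated WT MP cells against 5.67 and 5.76, and 6.98 and 6.95 in Parp-2-/- MP cells against 5.91 and 6.26. The irradiated arrays were lower within each genotype. WT pool 1 before irradiation stood below 1 irradiated Parp-2-/- array, and the 2 WT pools were 1.56 apart. The change over both genotypes was -0.998 ± 0.27 and did not pass (limma, adjusted p = 0.104). Tal1, a partner of GATA1 in its complexes, changed by -0.36, Zfpm1 by -0.39 and the globin regulator Nfe2 by -0.48, none of which passed (adjusted p of 0.244 to 0.314).

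Of the 3 receptor and signalling genes, Tfrc and Epor fell. Tfrc, which brings in iron for haem, read 8.81 and 8.87 in unirradiated WT MP cells against 7.67 and 7.65, and 8.87 and 9.38 in Parp-2-/- MP cells against 8.15 and 8.13. The groups did not overlap, and the WT pools of a dose lay almost level. The fall was 1.18 ± 0.22 in WT (limma, adjusted p = 0.0293), the change was -0.99 ± 0.22 in Parp-2-/- (adjusted p = 0.0957), and the fall over both was 1.09 ± 0.16 (adjusted p = 0.0022).

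Epor read 5.25 and 5.68 in unirradiated WT MP cells against 4.78 and 4.79, and 5.82 and 5.63 in Parp-2-/- MP cells against 4.83 and 4.93. The irradiated arrays were the lowest 4, just above their array medians. Epor fell by 0.77 ± 0.17 over both genotypes (limma, adjusted p = 0.0376). Sphk1, which makes the sphingosine 1-phosphate that red cells store, changed by -0.54 ± 0.17 and did not pass (adjusted p = 0.173).

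Among the 8 surface antigens and transporters, 3 fell over both genotypes (Aqp1, Ermap and Icam4). Aqp1, the water channel that carries the Colton antigen, read 7.28 and 8.01 in unirradiated WT MP cells against 5.95 and 6.19, and 8.11 and 8.08 in Parp-2-/- MP cells against 6.42 and 7.18. The unirradiated arrays were the highest 4, though WT pool 1 before irradiation stood only just above irradiated Parp-2-/- pool 2. Aqp1 fell by 1.44 ± 0.23 over both (limma, adjusted p = 0.00469). In WT alone the change was -1.57 ± 0.32 with an adjusted p of 0.0506, just above the threshold.

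Ermap, a membrane protein that carries the Scianna antigens, read 8.11 and 9.20 in unirradiated WT MP cells against 6.84 and 6.90. In Parp-2-/- MP cells it read 8.87 and 9.34 against 8.06 and 8.31. The irradiated arrays were lower within each genotype, but irradiated Parp-2-/- pool 2 lay above unirradiated WT pool 1. Ermap fell by 1.35 ± 0.28 over both (limma, adjusted p = 0.0245), with -1.78 ± 0.39 in WT and -0.92 ± 0.39 in Parp-2-/-.

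Rhag read 6.13 and 7.47 in unirradiated WT MP cells against 4.96 and 4.78 in irradiated ones. In Parp-2-/- MP cells it read 7.20 and 8.16 against 6.64 and 7.36, so that the groups overlapped there. Its change was -1.93 ± 0.45 in WT, the largest of the 29 genes, and -0.68 ± 0.45 in Parp-2-/-, and neither passed (limma, adjusted p = 0.103 and 1).

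Rhd, its partner in the Rh complex, read 6.14 and 7.83 in unirradiated WT MP cells against 5.07 and 5.43, and 7.31 and 7.81 in Parp-2-/- MP cells against 6.53 and 7.32. As for Rhag, the Parp-2-/- groups overlapped and the WT groups did not. The change over both genotypes was -1.19 ± 0.30 (limma, adjusted p = 0.0758), and that of Rhag was -1.30 ± 0.32 (adjusted p = 0.0669).

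Icam4, the Landsteiner-Wiener adhesion molecule, read 6.82 and 6.76 in unirradiated WT MP cells against 6.05 and 6.05, and 7.30 and 7.01 in Parp-2-/- MP cells against 6.13 and 6.39. The WT pools of a dose stood close together, and the Parp-2-/- pools were 0.28 apart before and 0.26 after irradiation. No group overlapped its irradiated counterpart. Icam4 fell by 0.82 ± 0.14 over both genotypes (limma, adjusted p = 0.00869). Kel, the Kell antigen protease, changed by -0.79 and Cldn13 by -0.89, with adjusted p of 0.263 and 0.339. Slc4a1 changed by -0.18 at levels near the array median.

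In the membrane skeleton, Ank1 and Add2 fell, 2 of 5 genes. Ank1, the ankyrin that ties the skeleton to the membrane, read 5.74 and 6.68 in unirradiated WT MP cells against 5.47 and 5.31, and 6.79 and 7.04 in Parp-2-/- MP cells against 6.05 and 6.32. It was lower after irradiation in each genotype without overlap, and Parp-2-/- arrays stood above WT arrays at the same dose. Its fall was 0.77 ± 0.18 (limma, adjusted p = 0.049), the weakest of the calls: it held in 3 of the 16 fits that left out 1 array, with a change of -1.01 to -0.54 and an adjusted p of up to 0.213. Add2, beta-adducin, fell by at least 0.99 ± 0.19 (adjusted p = 0.0138), a lower bound because both irradiated WT arrays lay below their medians. The spectrin gene Sptb changed by -0.58 (adjusted p = 0.0801), Epb42 by -0.47 and Tmod1, tropomodulin, by -0.23. The second Tmod1 row changed by -0.12 in WT and -0.04 in Parp-2-/- MP cells.

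None of the 6 remaining genes, the carbonic anhydrases and genes of haem handling or of terminal maturation, passed over both genotypes, and 5 read below 0. Car2, carbonic anhydrase 2, read 9.07 and 9.83 in unirradiated WT MP cells against 8.36 and 8.55, and 9.52 and 10.14 in Parp-2-/- MP cells against 9.23 and 9.55. The WT groups stood apart, and the Parp-2-/- groups overlapped by a narrow margin. Its change was -0.72 ± 0.19 (limma, adjusted p = 0.0913). Tspo2, a transporter of maturing erythroblasts, came next to the threshold at -0.76 ± 0.18 (adjusted p = 0.051).

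Car1, which separated MP from LSK cells most widely in WT, read 10.96 and 11.42 in unirradiated WT MP cells against 10.59 and 10.76, and 11.21 and 11.53 in Parp-2-/- MP cells against 11.15 and 11.33. Only the WT groups were apart, and the change of -0.32 ± 0.35 did not pass (limma, adjusted p = 0.936). Its interval ran from -1.08 to 0.44. The biliverdin reductase Blvrb changed by -0.77 and Trim10 by -0.79, with adjusted p of 0.211 and 0.102. Abcb10, a transporter of the mitochondrial inner membrane, changed by 0.03 ± 0.14 and was the single gene of the 29 to read above 0.

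The responses of WT and Parp-2-/- MP cells were next set against each other, the question behind the use of Parp-2-/- mice. By limma, 0 of the 29 genes differed in response between genotypes at an adjusted p under 0.05 and 0 at an unadjusted p under 0.05, where 0% and 0.867% of all rows did. The Parp-2-/- response minus the WT response ran from -0.53 for Tmod1 to 1.25 for Rhag, with a median of 0.12. It was below 0 for 9 genes and for 48.6% of all rows. For Gfi1b it was -0.01 with a 95% interval of -0.62 to 0.59, and for Hemgn 0.01 with an interval of -0.86 to 0.87. For Rhag it was 1.25 with an interval of -0.15 to 2.64, for Rhd 1.10 (-0.21 to 2.41) and for Ermap 0.87 (-0.33 to 2.06). These intervals hold both no difference and a difference of over 2-fold, so with 2 pools a group the size of any genotype difference in these surface antigens is not resolved.

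The genotypes were also compared at each dose. In unirradiated MP cells 0 of the 29 genes were called by limma, where 0.00436% of all rows were, and 2 passed at an unadjusted p under 0.05, Ank1 and Add2, as did 1.08% of all rows. In irradiated MP cells 0 were called, where 0.00871% of all rows were, and 11 passed at an unadjusted p, against 1.79% of all rows. Every irradiated Parp-2-/- array lay above every irradiated WT array for 21 genes, where 17.3% of all rows did so, and for 9 genes before irradiation, where 12.7% did. Rhag was 2.13 ± 0.45 higher in irradiated Parp-2-/- than WT MP cells, Rhd 1.68 ± 0.43 and Ermap 1.32 ± 0.39, each with an adjusted p of 1. The 12 granulocyte and monocyte markers described below went the other way. In irradiated MP cells all 12 read lower in Parp-2-/- than in WT, with a median of -0.32 beside 0.002 for all rows. Before irradiation 11 did, with a median of -0.25 beside -0.01 for all rows. Of these 12, 0 were called by limma at either dose, and 0 before and 1 after irradiation passed at an unadjusted p under 0.05. Their part in the erythroid difference was not tested. The irradiated MP groups enter both this comparison and the responses above.

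In LSK cells 0 of the 29 genes were called after irradiation in WT by limma, where 1.8% of all rows were, and 0 in Parp-2-/-, where 1.47% were. At an unadjusted p under 0.05 there were 3 in WT (Tfrc, Tmod1 and Car2) and 1 in Parp-2-/- (Tfrc), against 14.7% and 11.8% of all rows. The median change was -0.17 in WT and -0.04 in Parp-2-/- LSK cells, with 19 and 15 genes below 0, beside 52.5% and 50.2% of all rows. Tfrc read 7.26 and 6.86 in unirradiated WT LSK cells against 6.35 and 6.03, and 6.94 and 7.47 in Parp-2-/- LSK cells against 6.59 and 6.40. Its arrays did not overlap in either genotype. The changes were -0.87 ± 0.22 and -0.71 ± 0.22 (adjusted p = 0.072 and 0.176), beside the fall of 1.09 in MP cells. Averaged over both genotypes, a comparison added after the values were seen, 1 of the 29 genes was called in LSK cells and 3 passed at an unadjusted p under 0.05, where 3.71% and 15.4% of all rows did. That gene was Tfrc, which fell by 0.79 ± 0.16 (adjusted p = 0.0143) and was called in each of 16 fits without 1 array. With the LSK arrays fitted alone it was not called. The median of the 29 genes was -0.06.

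The difference between the MP and LSK responses was tested directly, averaged over genotypes. By limma, 0 of the 29 genes passed, as did 0% of all rows, so the responses of the 2 populations are not shown to differ. At an unadjusted p under 0.05 there were 15 of 29, against 6.55% of all rows, and the MP response was the lower one for 28 of 29 and for 51.9% of all rows, with a median difference of -0.57. Of the 29 genes, 7 lay above the array median on none of the 8 LSK arrays (Rhag, Rhd, Kel, Cldn13, Epb42, Tspo2 and Trim10) and Epor and Add2 on 1 of 8. A fall in LSK cells could hardly be seen for these 9, and among the other 20 the MP response was the lower for 19. Among genes read above the median on most LSK arrays, Aqp1 had the largest difference, -1.54 ± 0.32 (adjusted p = 0.229), followed by Car2 at -1.17 ± 0.27 (adjusted p = 0.261). Gfi1b, whose unirradiated WT levels were close in the 2 populations, differed by -0.99 ± 0.20 (adjusted p = 0.229).

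Between genotypes within LSK cells, 0 of the 29 genes were called by limma in either state, where 0% of all rows were before and 0.0174% after irradiation, and 1 passed at an unadjusted p under 0.05 in each, Icam4, beside 9.31% and 9.55% of all rows. Icam4 read 6.04 and 6.49 in unirradiated WT LSK cells against 5.23 and 5.41 in Parp-2-/- ones, and 6.04 and 6.08 against 4.79 and 5.28 after irradiation. All 4 Parp-2-/- LSK arrays lay below all 4 WT LSK arrays. The differences were -0.95 ± 0.20 and -1.03 ± 0.20 (adjusted p = 0.149 and 0.14). Icam4 was called when pool 1 of the unirradiated WT LSK cells was left out (1 gene in place of 0 before irradiation) or pool 2 of the irradiated Parp-2-/- LSK cells (1 after). In MP cells Icam4 differed between genotypes by 0.37 ± 0.20 before irradiation, with Parp-2-/- the higher (adjusted p = 1).

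In MP cells the pools of a group lay farther apart in the erythroid genes than in all rows. Among the unirradiated WT MP pools, the median gap between pools was 0.46 log2 units over the 29 genes and 0.18 over all rows, and pool 1 was the lower for 26 genes, all but 3. The widest gap was in Rhd, 1.70 lower in pool 1. The irradiated WT MP pools were closest, with medians of 0.16 and 0.12, and pool 1 was the higher for 12 genes. The Parp-2-/- medians in MP cells were 0.31 against 0.15 before and 0.34 against 0.17 after irradiation, with pool 1 the higher for 8 and 5 genes. Kel differed most before irradiation (1.20 lower in pool 1) and Cldn13 after it (1.14 lower).

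LSK pools did not lean the same way in all 4 groups. The median of pool 1 minus pool 2 was -0.15 in WT and -0.16 in Parp-2-/- LSK cells before irradiation. After irradiation it was 0.03 and 0.10. Pool 1 was the higher for 10 and 15 of the 29 genes in unirradiated and irradiated WT LSK cells, and for 8 and 18 in Parp-2-/- LSK cells. Car1 had the widest gap in 3 of the 4 LSK groups, 1.47, 1.17 and 1.33 lower in pool 1. Its changes in LSK cells thus rest on pools that stand far apart.

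**Figure D3:**
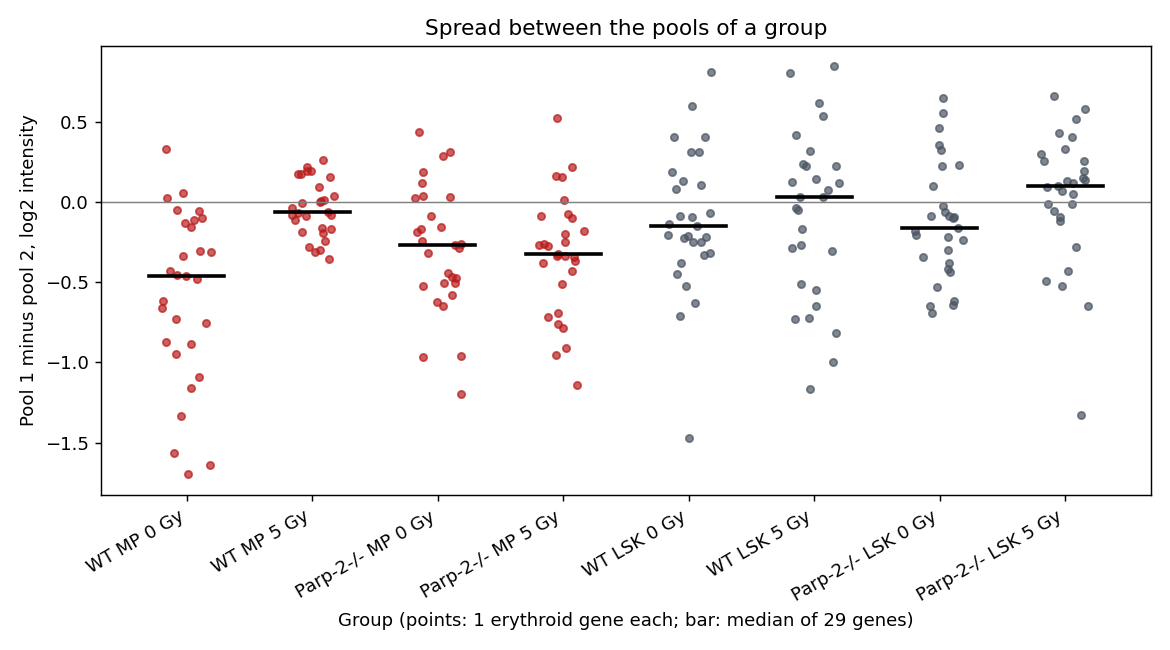
Each point is 1 of the 29 erythroid genes, the vertical axis gives pool 1 minus pool 2 in log2 intensity, and the horizontal axis gives the 8 groups, with the median of the 29 genes as a bar. The bar lies at -0.46 for unirradiated WT MP cells, near 0 for irradiated WT MP cells, and at -0.27 and -0.33 for the Parp-2-/- MP groups.

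The mean of the 29 genes, each centred on its own mean over the 16 arrays, was 0.54 and 1.13 in unirradiated WT MP pools 1 and 2 and -0.07 and -0.03 after irradiation. The Parp-2-/- MP pools stood at 0.998 and 1.29 before and 0.30 and 0.63 after. All 8 LSK arrays lay between -0.71 and -0.46. Irradiated MP arrays were below the unirradiated arrays of their genotype and above every LSK array, and the irradiated Parp-2-/- pool 2 stood above the unirradiated WT pool 1.

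Markers of the other myeloid progenitors were read beside them. For 12 granulocyte and monocyte genes, among them Mpo, Elane, Prtn3 and Ctsg, the same mean was 0.84 and 0.50 in unirradiated WT MP pools 1 and 2 and 0.87 and 0.85 after irradiation. The Parp-2-/- MP pools stood at 0.52 and 0.36 before and 0.68 and 0.38 after. In each of the 8 groups, LSK as well as MP, the pool with the lower erythroid mean had the higher granulocyte and monocyte mean. In irradiated WT MP cells the pools lay close together in both means. Of these 12 genes 0 were called by limma after irradiation over both genotypes, 2 passed at an unadjusted p under 0.05, and 11 read above 0, with a median of 0.15. Their summed linear intensity was 7300 to 8940 before and 9371 to 9476 after irradiation in WT MP cells, and 6794 to 7403 and 6879 to 8270 in Parp-2-/- MP cells. The summed intensity of the 29 erythroid genes was 5222 to 7833 before and 3425 to 3709 after in WT, and 6930 to 8951 and 5016 to 6150 in Parp-2-/-. Such sums are weighted towards the genes with the highest readings, among the 29 Car1, whose own change did not pass. The part of cell composition in the erythroid falls was not tested.

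**Figure D4:**
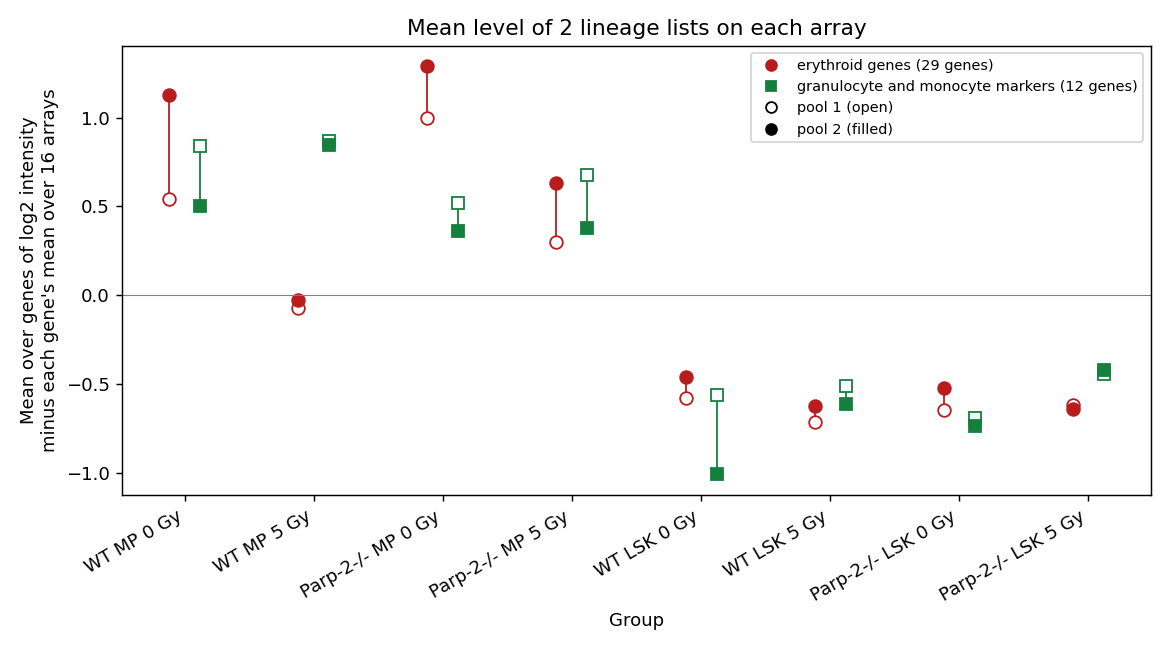
The mean over the 29 erythroid genes (circles) and over 12 granulocyte and monocyte markers (squares) of log2 intensity minus each gene's mean over the 16 arrays is plotted on the vertical axis for the 8 groups, with pool 1 open, pool 2 filled and a line joining them. In unirradiated WT MP cells the erythroid mean is 0.54 in pool 1 and 1.13 in pool 2 while the marker mean is 0.84 and 0.50.

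The other marker lists moved little in MP cells. Over both genotypes, limma called 0 of 8 megakaryocyte, 0 of 13 stem cell, 0 of 6 B lymphocyte, 0 of 5 T lymphocyte and 0 of 8 macrophage genes, and at an unadjusted p under 0.05 there were 1, 1, 0, 1 and 1. Their medians lay between -0.20 (T lymphocyte) and 0.10 (macrophage). None of the 5 T lymphocyte genes was above the array median in both pools of any MP group, and 2 of the 6 B lymphocyte genes were. Of 7 mast cell and basophil genes 1 was called lower, Gata2, with a list median of 0.05. The summed intensity of that list was 514 to 642 before and 754 to 762 after irradiation in WT MP cells, and 376 to 497 and 384 to 463 in Parp-2-/- MP cells. Macrophage genes, which would mark the nurse cells of erythroblastic islands, summed to 162 to 216 before and 206 to 208 after in WT, and to 169 to 180 and 214 to 216 in Parp-2-/- MP cells.

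Other genes of the red cell pathway were counted in the same way over both genotypes. Of 14 partners and rivals of the erythroid factors 1 fell, Gata2, the GATA factor that GATA1 replaces as red cells mature. Gata2 fell by 0.72 ± 0.11 (limma, adjusted p = 0.00439), while the median of its list was -0.29. Of 11 further red cell membrane genes 1 fell, the urea transporter Slc14a1, by 1.24 ± 0.16 (adjusted p = 0.00126). Slc14a1 also fell in Parp-2-/- LSK cells, by 1.23 ± 0.23 (adjusted p = 0.0209), and read 0.08 ± 0.23 in WT LSK cells (adjusted p = 0.922).

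Limma called 0 of 8 haem synthesis genes (3 at an unadjusted p under 0.05, median -0.27), 0 of 10 genes of iron supply (3, median -0.15), 0 of 11 genes of the erythropoietin and STAT5 response (3, median -0.20) and 0 of the 3 globin genes (0, median 0.00). Slc11a2, which moves iron out of endosomes and so works beside Tfrc, changed by -0.94 ± 0.23 without passing (adjusted p = 0.0655). Apart from the globin genes, the medians of these lists lay between that of the 29 erythroid genes, -0.77, and that of all rows, -0.03.

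The erythroid genes varied among themselves in how closely they followed the rest. Over the 8 MP arrays the Pearson correlation of a gene with the mean of the other 28 was 0.99 for Sptb, 0.98 for Ermap, 0.97 for Aqp1 and 0.97 for Hemgn. It was 0.33 for Abcb10, 0.20 for Tmod1 and 0.18 for Nfe2. Over all 16 arrays Gfi1b had a correlation of 0.56 and Hemgn one of 0.78, against 0.98 for Ermap and Rhd, and Slc4a1 one of -0.28. The arrays share normalisation, and the 16 fall into an MP and an LSK set, so these are descriptions.

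Of 19908 other genes, the 8 whose profile was most like the mean of the 29 over the 16 arrays were Tspan8, Myh10, Reps2, Slc40a1, Asns, Slc38a5, Pklr and Tlcd4, with Pearson correlations of 0.98 (Tspan8) to 0.96 (Tlcd4). Over the 8 MP arrays alone they were 0.91 for Myh10 to 0.995 for Tlcd4. Slc40a1 is ferroportin, the iron exporter, and Pklr encodes the pyruvate kinase of red cells and liver. Tlcd4 averaged 6.59 in unirradiated WT MP cells and 3.50 in irradiated ones, and 7.45 and 5.24 in Parp-2-/- MP cells. Pklr averaged 6.16 and 4.89 in WT and 6.51 and 5.87 in Parp-2-/- MP cells. These genes were picked for the likeness, so their values are given without a test.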

How the data were processed

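The deposited values are log2 intensities of array transcript clusters. RMA, limma, affy 2.10 and R 2.15 are named in the submitters' processing notes, with no role or order. The log base was read from the values. Neither it nor which arrays were normalised as 1 set is stated in the sources used here. The 34760 rows were used as deposited, and the 22961 rows with at least 1 gene symbol were tested. A linear model of 8 group means over the 16 arrays was fitted in limma 3.58.1 (R 4.3.3) with moderated variances (8 residual and 4.35 prior degrees of freedom). The 13 comparisons, and the mean LSK response added after seeing the data, had two-sided tests, Benjamini-Hochberg adjustment over the tested rows and calls at an adjusted p under 0.05. Errors are standard errors, and the median for a pair of groups was 0.207. The fit was tested on simulated data. The number of arrays limits the precision. The erythroid genes, the 14 further gene lists and the rules were chosen with earlier results of these data known. Values by array are printed for the 8 genes with the largest mean response in MP cells and for Gata1, Klf1, Epor and Tfrc. Those of Icam4, Ank1, Car1 and Car2, and the values of Gfi1b, Tfrc and Icam4 in LSK cells, were added after they were seen. From the other lists, up to 4 genes with the largest response in MP cells may be named. Mpo, Elane, Prtn3, Ctsg, Alas2 and the globin genes were named outside that rule. Alternatives were another scaling between arrays, other row sets, other variance settings, the MP arrays alone, the pool number as a replicate block and each array left out.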

Additional observations from a re-analysis of the deposited data

How the results depend on the processing

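Across all alternatives for the 13 comparisons chosen at the start, 0 values of single genes changed direction among those called, 142 lost and 58 gained a call, and 8429 kept their side of the threshold. The count for WT MP cells, 3, was 1 with all rows of the table tested, 5 with the rows of a gene averaged, 6 with a replicate block and 6 with the MP arrays alone. The count for Parp-2-/- MP cells, 2, was 1 after quantile scaling, 1 with all rows, 1 with trended robust variances, 1 with a replicate block and 5 with the MP arrays alone. The count for both genotypes, 10, was 6 after quantile scaling and 6 with all rows. The count for LSK cells over both genotypes, a comparison added after seeing the data, was 1 and became 0 with the LSK arrays alone, where the adjusted p of Tfrc was 0.121 (0.0101 to 0.0461 in its other alternatives). Other counts stayed within 1.5 times under these settings. With 1 array left out, the counts were 0 to 6 in WT MP cells, 0 to 2 in Parp-2-/- MP cells, 4 to 16 over both, 1 to 1 in LSK cells over both, 0 to 1 between genotypes in unirradiated and 0 to 1 in irradiated LSK cells, 9 to 14 between cell types in WT and 10 to 20 in Parp-2-/-. Pool numbers share only a number: over 28 pairs of groups, the correlation of pool differences ran from -0.17 to 0.23, so the block is no pairing of samples. The 2 pools a group, with a median standard error of 0.292 for an interaction, limit what can be told apart between genotypes.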
